A study of Rattus norvegicus with 6 samples.

Results

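The genes described here are 8 that belong to the making of cholesterol and its control: Hmgcs1, Idi1, Fdps, Fdft1, Sqle, Cyp51, Srebf2 and Insig1. They were taken by symbol from a table of 13843 rows for 13556 symbols. Sqle stood on 2 rows, called listing 1 and listing 2 below, so the 8 genes gave 9 features, and all 9 passed the filter on low values that left 10359 features for testing. Other genes of synthesis, uptake and control come from 6 lists described after the members.

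RNA was sequenced from cultures of neonatal rat ventricular myocytes, contracting cells taken from newborn rat hearts, in 6 libraries, 2 for each of 3 groups. All cultures were given phenylephrine (PE), an agonist of alpha-1 adrenergic receptors that makes such cells grow, and all were given a short hairpin RNA. The groups were PE with a control hairpin (PE), PE and TSA with the control hairpin (PE+TSA), and PE and TSA with a hairpin that targets JIP1 (PE+TSA+shJIP1). Treatment lasted 3 days in all groups. The labels do not spell out TSA, which usually stands for trichostatin A, an inhibitor of histone deacetylases, and they call the last group a knockout in one place and a hairpin in another. JIP1, made from Mapk8ip1, is a scaffold of the JNK kinase cascade. Not analysed here were cultures lacking PE and the JIP1 hairpin in the absence of TSA. It is not stated in the labels whether the 2 libraries of a group are separate cultures, so p-values measure only the spread between these libraries, which may be technical.

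Cholesterol is built from acetyl-CoA through mevalonate, farnesyl diphosphate, squalene and lanosterol. SREBP-2, the product of Srebf2, is a membrane-bound transcription factor that is cut free when sterols in the endoplasmic reticulum run low and then switches on the enzymes of the route and genes of uptake. Insig1 holds SREBP in the endoplasmic reticulum while sterols are plentiful, and is itself an SREBP target. Heart muscle cells make part of their own cholesterol and take up the rest from lipoproteins.

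Promoters of 4 members are printed first, since the members are known for a shared sterol control and their values below move in part together. They run from 250 bases before to 50 bases after the annotated start, in the direction of the gene, from RefSeq on the build GRCr8, which is not the build of the expression values. Capitals mark the NF-Y box, CCAAT in either strand's reading, and a shortened sterol regulatory element, TCACNCCA. The entries are chr2:53382054-53382353 for Hmgcs1 (plus strand), chr2:176804767-176805066 for Fdps (minus strand), chr4:30991443-30991742 for Cyp51 (plus strand) and chr7:115543057-115543356 for Srebf2 (plus strand).
Hmgcs1: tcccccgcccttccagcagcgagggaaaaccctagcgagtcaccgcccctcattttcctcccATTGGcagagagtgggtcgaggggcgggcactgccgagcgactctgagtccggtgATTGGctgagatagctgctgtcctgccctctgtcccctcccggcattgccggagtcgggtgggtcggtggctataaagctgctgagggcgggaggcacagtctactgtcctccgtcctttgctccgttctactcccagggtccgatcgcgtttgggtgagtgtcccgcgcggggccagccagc
Fdps: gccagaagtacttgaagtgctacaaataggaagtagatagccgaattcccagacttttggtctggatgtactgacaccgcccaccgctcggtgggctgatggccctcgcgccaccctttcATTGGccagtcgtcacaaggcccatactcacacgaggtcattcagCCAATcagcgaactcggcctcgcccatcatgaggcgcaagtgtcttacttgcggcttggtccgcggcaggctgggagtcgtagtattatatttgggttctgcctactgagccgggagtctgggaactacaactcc
Cyp51: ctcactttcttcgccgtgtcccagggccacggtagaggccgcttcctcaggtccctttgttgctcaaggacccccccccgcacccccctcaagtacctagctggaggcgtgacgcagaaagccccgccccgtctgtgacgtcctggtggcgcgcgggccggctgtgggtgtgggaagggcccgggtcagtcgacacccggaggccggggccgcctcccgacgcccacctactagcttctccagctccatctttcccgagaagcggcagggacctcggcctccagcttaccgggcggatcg
Srebf2: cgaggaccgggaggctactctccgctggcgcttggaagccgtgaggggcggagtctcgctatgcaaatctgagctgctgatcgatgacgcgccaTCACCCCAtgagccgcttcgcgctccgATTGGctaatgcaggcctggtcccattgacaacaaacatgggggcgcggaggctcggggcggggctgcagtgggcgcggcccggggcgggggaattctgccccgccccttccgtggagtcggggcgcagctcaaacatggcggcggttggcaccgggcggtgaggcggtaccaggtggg

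Promoter entries matched 6 of the 8 members by symbol, the 4 shown and those of Idi1 and Insig1. The NF-Y box stood on either strand in 5 of the 6, with Cyp51 as the one without it, against 37.5% of all 33469 promoters in the table. Hmgcs1, Idi1 and Fdps each held it at 2 places, for Hmgcs1 at -188 and -133 from the start. The Sp1 box GGGCGG was in 5 of the 6, Idi1 being without it, against 33.1% of all promoters. The sterol regulatory element TCACNCCAC was in 0 of the 6 windows, against 1.12% of all. Its first 8 letters, TCACNCCA, a form chosen after the sequences were seen, matched 1 member, Srebf2 at -156, against 3.89% of all promoters. These matches are a description of letters in a short window, and the matched motifs did not overlap each other there.

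Libraries differed in depth and in cell markers. The table gives FPKM (fragments counted on a gene, scaled to its length and to the library), with no totals. The steps between low values put PE replicate 2 at 20.8 times shallower than PE replicate 1 and the other 4 libraries at 0.722 to 1.34 of it. For PE replicate 2 this is an estimate from the most frequent ratio, shared by 30 of 217 low features. Of all rows, 3667 were at 0 under PE replicate 2 and 1407 to 1837 in the others. All 11 cardiomyocyte markers (such as Tnnt2 and Actn2) were in the table, and their summed level was 20580 and 25640 FPKM under PE, 5470 and 11680 under PE+TSA, and 5668 and 10490 under PE+TSA+shJIP1. The 8 fibroblast markers summed to 1048 and 1702, 523 and 728, and 563.6 and 675.3 FPKM, with Col1a2 under 1 FPKM in every library. The 6 smooth muscle and pericyte markers summed to 1316 and 1637, 247.8 and 390.4, and 486 and 509.9 FPKM. The 6 endothelial markers summed to 11.23 to 38.59 FPKM over the 6 libraries (Tie1 under 1 in each), 5 of 6 macrophage markers to 9.531 to 17.78 (Ptprc under 1 in each) and 3 of 4 hepatocyte markers to 0 to 3.234 (Apoa1 and Serpina1 under 1 in each). Of the neuronal markers, 3 of 4 were in the table and summed to 4.489 and 6.07 FPKM under PE and to 30.74 to 74.08 in the libraries with TSA. The cardiomyocyte, fibroblast and smooth muscle sums were thus lower in each library with TSA, as most members were, and their part in the results was not tested. A sum follows its highest genes most, and not every marker went with it. Pln was at 493 and 346 FPKM under PE and at 535 and 200 under PE+TSA. Libraries with TSA also overlapped PE for other markers, among them Pdgfra, Lum, Postn, Myh6 and Rgs5. In such bulk RNA, fewer cells of a type and less RNA per cell cannot be told apart. Mapk8ip1, the hairpin's target, was at 3.77 and 4.39 FPKM under PE, 14.6 and 17.9 under PE+TSA, and 1.80 and 3.65 under PE+TSA+shJIP1, so both hairpin libraries were the lowest (limma adjusted p = 0.077 against PE+TSA).

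The first comparison asks what TSA changed in the presence of PE. Of the 9 member features, 8 were lower in both PE+TSA libraries than in both PE libraries, and 1, Sqle listing 2, was higher in both. Over all features, 21.1% lay lower without overlap, 29.5% lay higher, and 42.9% had a log2 change below 0. None of the 9 passed a limma adjusted p of 0.05, where 0.811% of all features did (0.183% lower and 0.627% higher), and 5 had an unadjusted p under 0.05, against 18.7% of all. The median log2 change of the 9 was -0.48, with a range from -0.98 to 1.19, and that of all features was 0.10. Changes are given on the scale of log2(FPKM + 1) with their SE from limma, with 2 libraries in each group. All members were read from the same libraries, so these counts do not rest on independent observations.

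Hmgcs1, which joins acetyl-CoA and acetoacetyl-CoA to HMG-CoA, was at 287 and 295 FPKM under PE, 155 and 190.0 under PE+TSA, and 200.1 and 160.2 under PE+TSA+shJIP1. The PE libraries stood above the other 4, which mixed with each other. The log2 change with TSA was -0.76 ± 0.22 (adjusted p = 0.157), a mean at 59.3% of that in PE. Idi1, the isomerase that turns isopentenyl into dimethylallyl diphosphate, was at 144 and 113 under PE, 72.9 and 82.3 under PE+TSA, and 115 and 89.5 under PE+TSA+shJIP1. Its hairpin libraries lay between the other groups, with 1 of them inside the PE range. Its change with TSA was -0.72 ± 0.23 (adjusted p = 0.181).

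Fdps, which makes farnesyl diphosphate, the last intermediate shared with ubiquinone, dolichol and prenylated proteins, was at 324 and 296 FPKM under PE, 185 and 182 under PE+TSA, and 139.7 and 97.6 under PE+TSA+shJIP1. The 3 groups did not overlap and stood in that order. The change with TSA was -0.76 ± 0.23 (adjusted p = 0.17). Fdft1, squalene synthase, the first step committed to sterols, differed far less, with 60.5 and 61.6 under PE, 45.9 and 57.1 under PE+TSA, and 56.3 and 55.0 under PE+TSA+shJIP1. PE was highest, and the range of PE+TSA took in both hairpin libraries (change with TSA -0.25 ± 0.20, adjusted p = 0.519).

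Sqle, squalene epoxidase, which adds the oxygen that later becomes the sterol hydroxyl, stood on 2 rows that moved in opposite directions against PE. Listing 1 was at 73.4 and 79.7 FPKM under PE, 53.7 and 60.9 under PE+TSA, and 52.1 and 34.8 under PE+TSA+shJIP1. Listing 2 was at 22.8 and 24.2 under PE, 43.7 and 69.1 under PE+TSA, and 35.5 and 37.5 under PE+TSA+shJIP1. With TSA, listing 1 was lower (-0.41 ± 0.24, adjusted p = 0.401) and listing 2 higher (1.19 ± 0.26, adjusted p = 0.108), without overlap in either case. Their sum was 96.2 and 104 FPKM under PE, 97.4 and 130 under PE+TSA, and 87.7 and 72.3 under PE+TSA+shJIP1. Listing 2 held 23.7% and 23.3% of the sum under PE, 44.8% and 53.2% under PE+TSA, and 40.6% and 51.8% under PE+TSA+shJIP1. With the rows summed, the log2 change with TSA was 0.17 ± 0.22 (adjusted p = 0.706), and the 2 groups overlapped. The file does not say which transcript or position each row stands for, and the authors' counting could have split reads between them, so both are uncertain as measures of the gene.

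Cyp51, lanosterol demethylase, the first enzyme after the sterol ring is closed, had the largest difference of the 8 member features that were lower. It was at 119 and 113 FPKM under PE, 59.3 and 57.0 under PE+TSA, and 35.6 and 26.3 under PE+TSA+shJIP1. The 3 groups did not overlap, and the libraries were close to each other under PE and PE+TSA but less so under PE+TSA+shJIP1. The change with TSA was -0.98 ± 0.21, a mean at 50.1% of that in PE, with an adjusted p of 0.107.

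Of the controllers, Srebf2 was at 135 and 143 FPKM under PE, 119.6 and 128 under PE+TSA, and 99.9 and 108 under PE+TSA+shJIP1, again in order and without overlap, but with a change with TSA of only -0.17 ± 0.18 (adjusted p = 0.641). Insig1 was at 61.1 and 62.4 under PE, 35.9 and 53.9 under PE+TSA, and 60.5 and 60.3 under PE+TSA+shJIP1. Its lower level in PE+TSA rested on 1 library more than on the other (-0.48 ± 0.24, adjusted p = 0.34), and the hairpin libraries lay just under PE.

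**Figure D1:**
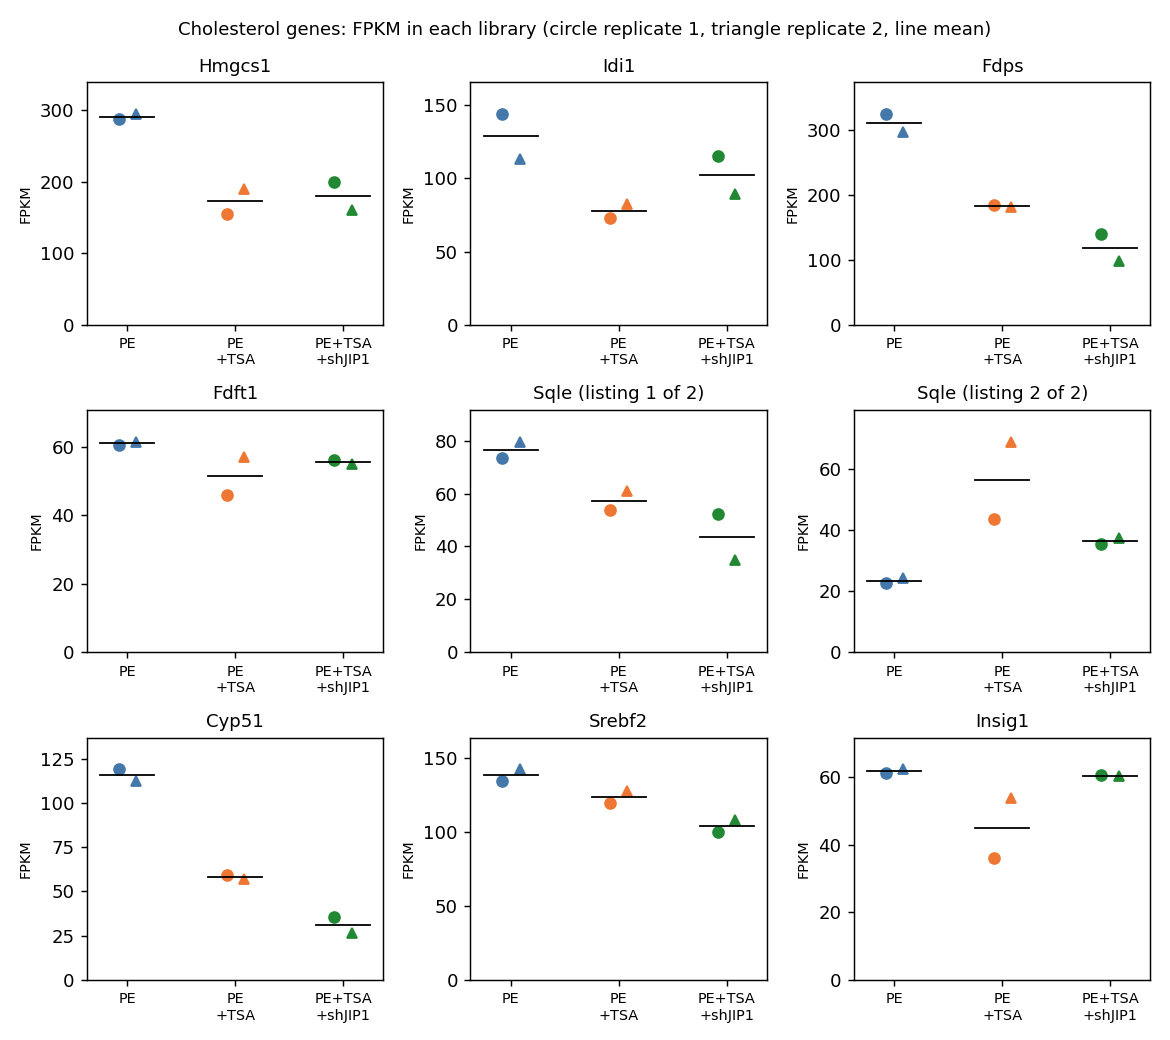
FPKM of the 9 member features (vertical axis, from 0) in the 3 groups (horizontal axis), with a circle for replicate 1, a triangle for replicate 2 and a line at the mean of the 2. Cyp51, Fdps, Srebf2 and Sqle listing 1 step down from PE over PE+TSA to PE+TSA+shJIP1. Insig1 and Fdft1 are near their PE level in the last group, and Sqle listing 2 is lowest in PE.

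The second comparison concerns the effect of the JIP1 hairpin where PE and TSA were also given. Cyp51, Fdps, Srebf2 and both rows of Sqle were lower with the hairpin in both libraries (5 of 9, against 25.1% of all features), and Idi1 and Insig1 were higher in both (2 of 9, against 24.9%). A log2 change below 0 was found for 5 of the 9 and 50.2% of all. None of the 9 passed in limma, where 0.29% of all features did (0.106% lower and 0.183% higher), and 2 had an unadjusted p under 0.05, against 14.9% of all. The median change of the members was -0.25 and that of all features -0.003. Cyp51 changed by -0.90 ± 0.21 (adjusted p = 0.151), which put its mean at 53.2% of that in PE+TSA, and Fdps by -0.64 ± 0.23 (adjusted p = 0.276). Sqle listings 1 and 2 changed by -0.42 ± 0.24 and -0.58 ± 0.26 and Srebf2 by -0.25 ± 0.18 (adjusted p = 0.489, 0.373 and 0.579). On the other side, Insig1 stood 0.45 ± 0.24 higher and Idi1 0.39 ± 0.23 (adjusted p = 0.452 and 0.49). Hmgcs1 and Fdft1 overlapped between the groups, at 0.06 ± 0.22 and 0.12 ± 0.20 (adjusted p = 0.924 and 0.832), and both were below 0 without PE+TSA replicate 1 (-0.09 and -0.04).

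The third comparison sets PE+TSA+shJIP1 against PE and shares its libraries with the other 2 comparisons. Cyp51 and Fdps fell, the only 2 of the 9 member features to pass, and none rose. Over all features, 8.27% passed, of which 4.16% of all fell and 4.11% rose. In 7 of the 9 the hairpin libraries lay below both PE libraries and in 1 above, against 26.7% and 33.9% of all features, and 8 of 9 log2 changes were below 0, against 44.4%. An unadjusted p under 0.05 was reached by 4 of the 9 and 30.7% of all. Cyp51 went to 26.7% of its mean in PE (log2 change -1.89 ± 0.21, limma adjusted p = 0.0143) and Fdps to 38.2% (-1.40 ± 0.23, adjusted p = 0.0255). Sqle listing 1 and Hmgcs1 were lower without passing (-0.83 ± 0.24 and -0.70 ± 0.22, adjusted p = 0.0825 and 0.0909). Srebf2 was at -0.41 ± 0.18, Idi1 at -0.33 ± 0.23, Fdft1 at -0.13 ± 0.20 and Insig1 at -0.03 ± 0.24 (adjusted p = 0.178, 0.368, 0.68 and 0.944), and Sqle listing 2 was higher by 0.62 ± 0.26 (adjusted p = 0.169). The median of the 9 was -0.41, against 0.10 for all features. Without PE replicate 2, the shallow library, the adjusted p of Cyp51 was 0.0674, and without PE+TSA+shJIP1 replicate 1 or 2 it was 0.0721 or 0.0984. That of Fdps was 0.0517 and 0.0841 without PE replicate 1 and 2, 0.061 and 0.0642 without PE+TSA replicate 1 and 2, and 0.0893 and 0.148 without PE+TSA+shJIP1 replicate 1 and 2. It was also 0.0523 with no filter on low values and 0.0529 with only these 2 groups in the fit.

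**Figure D2:**
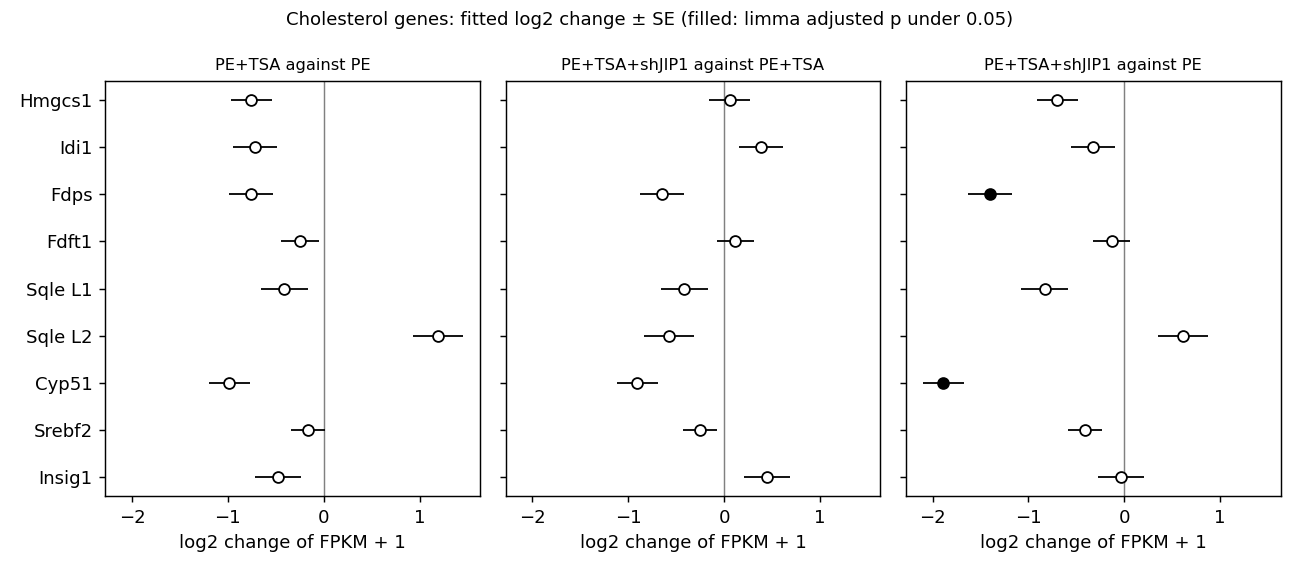
Log2 change of FPKM + 1 (horizontal axis) with its SE (bar) for each member feature (vertical axis, L1 and L2 being the listings of Sqle) in the 3 comparisons, filled where the limma adjusted p is under 0.05. Only Cyp51 and Fdps are filled, and only in PE+TSA+shJIP1 against PE, at -1.89 and -1.40.

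The order of the members by level, which FPKM allows since it is scaled to length, differed between the groups. In PE, Fdps (mean 310.4 FPKM, SD 19.7, n = 2) and Hmgcs1 (290.9, SD 5.45) led. Their libraries did not overlap, but the means differed by less than 1 SD of Fdps. Srebf2 (139, SD 5.64), Idi1 (129, SD 21.8) and Cyp51 (116, SD 4.78) followed, with Idi1 overlapping both of its neighbours. Sqle listing 1 (76.5, SD 4.45), Insig1 (61.8, SD 0.888) and Fdft1 (61.0, SD 0.797) came next, the last 2 overlapping, and Sqle listing 2 (23.5, SD 1.0) was last. In PE+TSA+shJIP1, Hmgcs1 led (180.1, SD 28.2), Fdps, Srebf2 and Idi1 overlapped at 119, 104 and 102 FPKM, and Cyp51 was last at 30.9 (SD 6.58), within 1 SD of Sqle listing 2 (36.5, SD 1.37). By mean, Cyp51 thus went from the fifth place to the last. In PE+TSA+shJIP1 its libraries overlapped those of Sqle listing 2.

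A ratio of 2 genes within a library does not depend on how that library was scaled, and the ratios to Cyp51, chosen after the values were seen, are given with no test. Hmgcs1 was 2.41 and 2.62 times Cyp51 under PE, 2.62 and 3.34 times under PE+TSA, and 5.62 and 6.09 times under PE+TSA+shJIP1. Idi1 was 1.21 and 1.01 times Cyp51 under PE, 1.23 and 1.45 under PE+TSA, and 3.24 and 3.40 under PE+TSA+shJIP1. For both genes the hairpin libraries stood apart from the other 4. Insig1 was at 0.512 and 0.554 of Cyp51 under PE and at 1.70 and 2.29 times under PE+TSA+shJIP1. Fdps moved least against Cyp51, from 2.72 and 2.63 times in PE to 3.11 and 3.19 under PE+TSA and 3.92 and 3.71 under PE+TSA+shJIP1. In these libraries the enzymes named here did not keep their proportions to Cyp51. Cyp51 had the lowest log2 change of the 9 features against PE (-1.89). A rise of the other ratios to it was therefore given in advance, and the ratios restate that change.

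**Figure D3:**
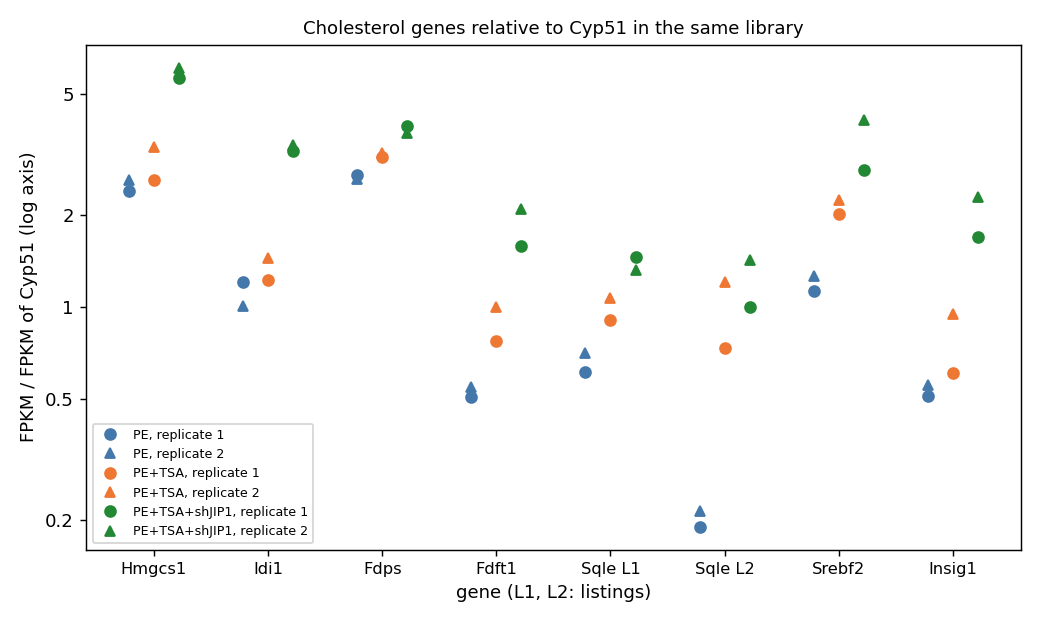
FPKM of each gene divided by that of Cyp51 in the same library (vertical log axis) for the member features (horizontal axis), coloured by group, circle and triangle for replicates 1 and 2. The hairpin libraries are the highest for every gene but Sqle listing 2, with Hmgcs1 at 5.62 and 6.09 and Fdps at 3.92 and 3.71.

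Over the 6 libraries, the members formed 36 pairs of features, and Pearson's r of their log2 values had a median of 0.483. These correlations are a description over 6 points that share the group structure and the depth of each library. Cyp51 and Fdps were the most alike (r = 0.995), and Sqle listing 1 and Srebf2 were close to them (0.938 and 0.903 with Cyp51). Insig1 was most like Fdft1 (0.923) and Idi1 (0.73), and near 0 with Cyp51, Fdps and Srebf2 (0.0528, 0.074 and 0.052). Hmgcs1 was at 0.596 or more with each member but Sqle listing 2. That row was negative with all 8 others (-0.796 to -0.303), and without it the 28 remaining pairs were all positive (median 0.704).

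**Figure D4:**
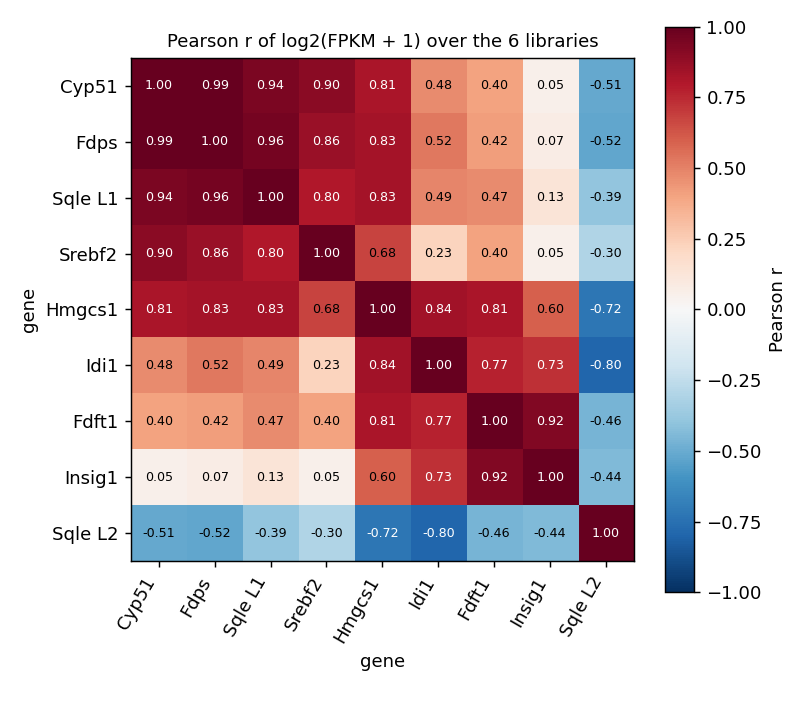
Pearson's r of log2(FPKM + 1) over the 6 libraries for each pair of member features (both axes), from -1 in blue to 1 in red. Cyp51, Fdps, Sqle listing 1 and Srebf2 are red with each other, Hmgcs1 with nearly all, Insig1 and Fdft1 with each other, and Sqle listing 2 is blue with all.

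Among 7777 other features averaging 5 FPKM or more, the 5 closest to the members' mean profile over the 6 libraries were Mif4gd (r = 0.996), Nagk (0.993), Nup107 (0.987), Tor1b (0.987) and Pxdc1 (0.986), and 87 had an r over 0.9. None of these 5 is on a list used here. Nagk, a kinase of N-acetylglucosamine, was at 12.4 and 12.5 FPKM under PE and 8.21 and 10.8 under PE+TSA, without overlap. Of the pathway genes reported here, Tmem97 had the highest r with that profile (0.948), followed by Scd1 (0.945), Scd (0.914), Vldlr (0.904) and Acly (0.901). Of all features tested, 4.76% had an r over 0.8.

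The other enzymes of the route reported here, 13 genes on 14 rows, were first compared with TSA. None passed, where 0.811% of all features did, and 1 had an unadjusted p under 0.05, against 18.7% of all. The median change was -0.02, against 0.10 for all features and -0.48 for the members. With the hairpin beside TSA none of the 14 passed (0.29% of all features did), and 5 had an unadjusted p under 0.05 (14.9% of all). Of the 14, 11 were below 0 (50.2% of all), and the median was -0.57. Msmo1, the methyl sterol oxidase that acts soon after Cyp51, was at 174 and 175 FPKM under PE, 114 and 157 under PE+TSA, and 53.4 and 44.9 under PE+TSA+shJIP1. The hairpin libraries stood far below the rest (-1.44 ± 0.23 against PE+TSA, adjusted p = 0.0845).

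Against PE, 3 of the 14 fell in PE+TSA+shJIP1 and none rose, where 4.16% of all features fell and 4.11% rose. They were Msmo1 (-1.81 ± 0.23, limma adjusted p = 0.0157), Acat2 listing 1, which makes acetoacetyl-CoA (-1.83 ± 0.22, adjusted p = 0.0143) and the phosphomevalonate kinase Pmvk (-1.01 ± 0.22, adjusted p = 0.0481). Pmvk passed in 6 of the 16 settings tried, the reported one included, with an adjusted p of up to 0.222, and did not pass when any 1 of the 6 libraries was left out. Acat2 listing 1 was at 28.5 and 28.0 FPKM under PE, 15.0 and 17.9 under PE+TSA, and 7.16 and 7.26 under PE+TSA+shJIP1. Its listing 2 ranged from 12.8 to 173 FPKM with libraries of a group far apart (adjusted p = 0.551), so the gene as a whole is uncertain. The median of the 14 was -0.56.

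Uptake and transport within the cell were represented by 9 genes, all tested. Vldlr, the VLDL receptor, was at 26.9 and 28.3 FPKM under PE, 14.5 and 14.3 under PE+TSA, and 14.7 and 13.2 under PE+TSA+shJIP1. The PE libraries stood above the other 4, which overlapped between their groups. With TSA none of the 9 passed in limma (0.811% of all features did), and 1 had an unadjusted p under 0.05, against 18.7% of all. Vldlr changed by -0.89 ± 0.20 (adjusted p = 0.117). With the hairpin none passed (0.29% of all features did), and 1 had an unadjusted p under 0.05, against 14.9% of all. Vldlr was then at -0.05 ± 0.20 (adjusted p = 0.939, and above 0 without PE+TSA+shJIP1 replicate 2). Against PE, Vldlr fell (-0.94 ± 0.20, adjusted p = 0.0449), and the other 8 did not pass (4.16% of all features fell). Vldlr passed in 7 of 16 settings, with an adjusted p of up to 0.213, and did not pass when any 1 of the 6 libraries was left out, with no filter, with 1 prior variance or with 2 groups in the fit. Lipa, the lysosomal acid lipase that frees cholesterol from its esters, was at 19.6 and 25.5 under PE, 22.6 and 35.5 under PE+TSA, and 34.8 and 36.6 under PE+TSA+shJIP1 (0.65 ± 0.28 against PE, adjusted p = 0.172). Stard3, a carrier of cholesterol in late endosomes, was at 17.1 and 19.6 under PE+TSA and 7.12 and 9.09 under PE+TSA+shJIP1, but at 8.07 and 17.8 under PE. The medians of the list were -0.02, 0.22 and 0.04 in the 3 comparisons.

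Of 13 genes of SREBP processing and sterol sensing, 10 were in the table and tested. Srebf1, whose product leans to fatty acid synthesis, was at 18.5 and 25 FPKM under PE, 6.68 and 6.50 under PE+TSA, and 6.06 and 5.84 under PE+TSA+shJIP1. PE was again apart from the other 4 libraries. The change was -1.57 ± 0.25 with TSA (limma adjusted p = 0.062), -0.13 ± 0.25 with the hairpin (adjusted p = 0.864) and -1.70 ± 0.25 against PE (adjusted p = 0.0208), where it was the only one of the 10 to pass. Of all features, 8.27% passed against PE, and 4.16% of all fell. None of the 10 passed in the first 2 comparisons, where 0.811% and 0.29% of all features did. An unadjusted p under 0.05 was reached there by 2 and 1 of the 10, against 18.7% and 14.9% of all features. Insig2, which retains SREBP without being its target, went the other way, at 6.03 and 5.46 under PE, 7.58 and 9.71 under PE+TSA, and 11.3 and 11.5 under PE+TSA+shJIP1 (0.87 ± 0.25 against PE, adjusted p = 0.0798). Rnf139, a sterol-linked ubiquitin ligase, was likewise higher without overlap (0.81 ± 0.23 against PE, adjusted p = 0.0758). Scap, the escort of SREBP, was at 10.2 and 9.05 under PE, 5.29 and 8.67 under PE+TSA, and 7.76 and 11.5 under PE+TSA+shJIP1 (-0.01 ± 0.33 against PE, adjusted p = 0.985, and above 0 without PE replicate 1 or PE+TSA+shJIP1 replicate 1). The medians of the list were 0.15, 0.22 and 0.22.

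SREBP also drives fatty acid synthesis. Of 15 symbols on that list, 13 features were tested, and Scd and Scd1 are close relatives whose reads may be shared. Scd is also an older symbol of Scd2, which is on the list but had no row, so the Scd row may stand for Scd2. With TSA, 0.811% of all features passed (0.183% lower and 0.627% higher). Fasn, fatty acid synthase, then fell from 57.8 and 64.0 FPKM to 17.8 and 18.8 (-1.68 ± 0.19, limma adjusted p = 0.0307) and was the only one of the 13 to pass. It passed without PE replicate 1 (0.0376) and not without PE replicate 2 (0.143), PE+TSA replicate 1 (0.128) or 2 (0.243), or PE+TSA+shJIP1 replicate 1 (0.103) or 2 (0.1), nor with a replicate block (0.0576), with no filter (0.0842), with 1 prior variance for all features (0.0526) or with 2 groups in the fit (0.0804). In all it passed in 7 of 16 settings. The median of the 13 with TSA was -0.88, and 9 had an unadjusted p under 0.05, against 18.7% of all features. With the hairpin none passed (0.29% of all features did), 2 had an unadjusted p under 0.05, against 14.9% of all, and the median was -0.25. Against PE, 7 of the 13 fell: Fasn, Acly, Scd, Scd1, Fads1, Fads2 and Acsl3 (adjusted p from 0.0158 to 0.0497, median of the 13 -1.14), where 4.16% of all features fell. Scd, the desaturase of stearate, was at 1014 and 900.1 FPKM under PE, 451 and 472 under PE+TSA, and 360.2 and 306 under PE+TSA+shJIP1. Fads2, a desaturase of polyunsaturated fatty acids, was at 141 and 133, 59.7 and 32.2, and 33.3 and 28.1, the largest change of the list (-2.13 ± 0.31).

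Of 13 genes of efflux, storage and the sterol receptor LXR, none passed with TSA or with the hairpin. Of all features, 0.811% and 0.29% passed there. An unadjusted p under 0.05 was reached by 4 and 3 of the 13, against 18.7% and 14.9% of all features. Against PE 2 of the 13 fell, where 4.16% of all did. These were Abcg1, a cholesterol exporter (21.0 and 25.4 FPKM under PE, 11.6 and 13.4 under PE+TSA, 6.44 and 9.89 under PE+TSA+shJIP1, limma adjusted p = 0.0359), and Lpcat3, a phospholipid acyltransferase (adjusted p = 0.0333). Abca1, the exporter that loads apolipoprotein A-I, was at 8.53 and 11.3 under PE, 2.65 and 3.29 under PE+TSA, and 3.20 and 4.68 under PE+TSA+shJIP1 (-1.45 ± 0.32 with TSA, adjusted p = 0.11). The medians of this list were -0.15, -0.17 and -0.15. None of the 10 tested genes of the non-sterol branch passed in any comparison, where 0.811%, 0.29% and 8.27% of all features did. Medians of the 10 were 0.10, 0.19 and 0.07. An unadjusted p under 0.05 was reached by 0, 0 and 3 of them, against 18.7%, 14.9% and 30.7% of all features. The leading genes of this branch by p, the farnesyltransferase subunits Fnta and Fntb and the protease Rce1, were higher against PE (1.30 ± 0.45, 1.11 ± 0.44 and 0.90 ± 0.31, adjusted p = 0.113, 0.152 and 0.114). The PE libraries of Fnta were far apart, at 27.2 FPKM in replicate 1 and 9.47 in replicate 2, the shallow one. Its change was 2.01 without PE replicate 1 (adjusted p = 0.0195) and 0.58 without PE replicate 2, and that of Fntb was 0.68 without PE replicate 2.

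Over the 6 lists, 14 features fell against PE and none rose, where 4.16% of all features fell and 4.11% rose. Tested features were 14 for enzymes, 9 for uptake, 10 for SREBP processing, 13 for efflux, 13 for fatty acid synthesis and 10 for the non-sterol branch. The fatty acid list held 7 of the 14 that fell. Of 16 settings, Acat2 listing 1 and Msmo1 passed in 13, Fasn, Scd, Scd1 and Fads2 in 12, Fads1 and Srebf1 in 11, Abcg1 and Acly in 8, Lpcat3 in 7 and Acsl3 in 5. The count of features that fell was 9 without PE replicate 1 (with 1 that rose), 6 and 3 without PE+TSA replicate 1 and 2, and 0 without PE replicate 2 or without PE+TSA+shJIP1 replicate 1 or 2. All features past the threshold in that comparison were 857, and 24, 18 and 25 in the last 3 settings.

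**Figure D5:**
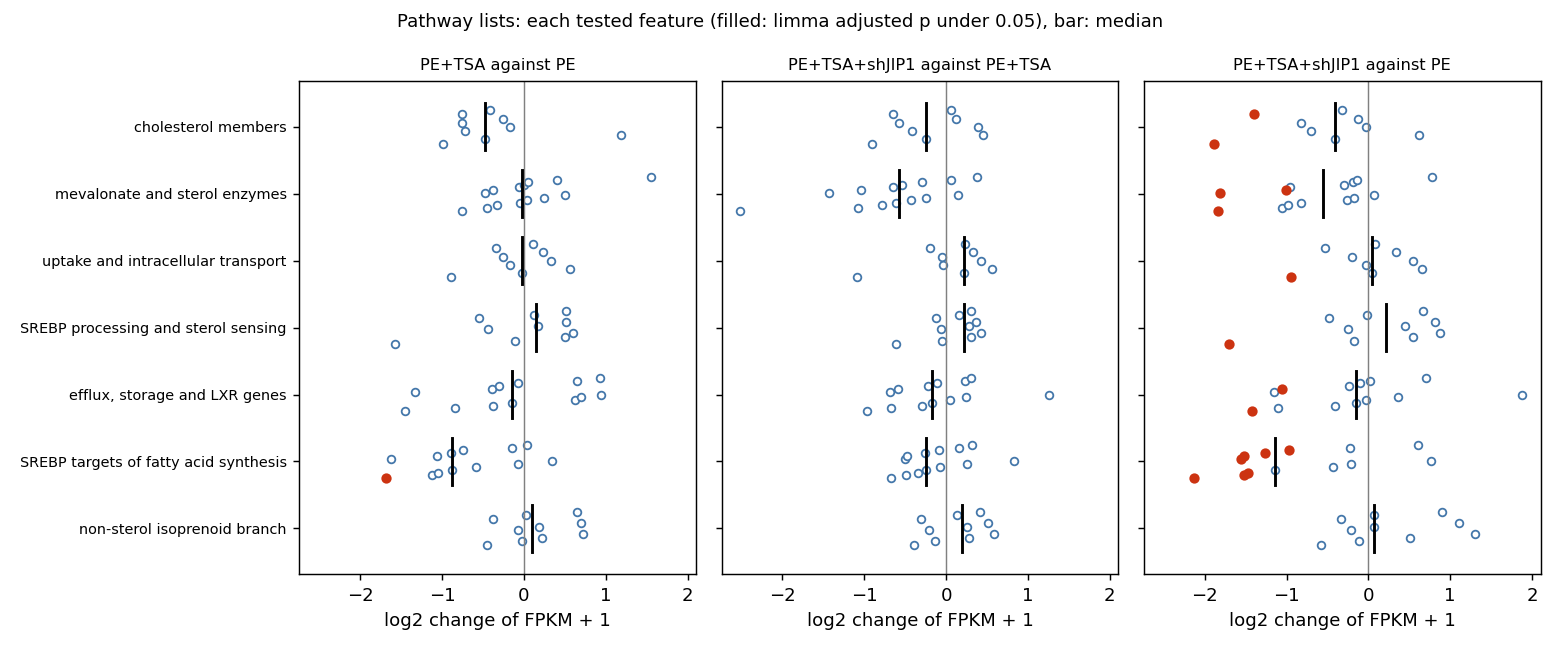
Log2 change of FPKM + 1 (horizontal axis) of each tested feature of the members and the 6 pathway lists (vertical axis) in the 3 comparisons, filled where the limma adjusted p is under 0.05, with a bar at the median. The fatty acid list lies furthest left with TSA (median -0.88) and against PE (-1.14), and filled points on the left in the last panel are the 2 members and the 14 other features that fell.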

How the data were processed

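RNA was measured in 6 libraries, 2 in each of 3 groups. The authors deposited 1 table of FPKM per gene; its header names no unit, and Cufflinks and the build rn6 are named, with no version or role, per the submitters' processing notes. For the aligner, the annotation, any filter and the strand of the counting, the sources used here give nothing. Reads of near-identical or overlapping genes may therefore have been split between them. Rows were kept as listed, and listings of a symbol were numbered in the order of the table.

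Features averaging 1 FPKM or more were tested on log2(FPKM + 1) with limma 3.58.1 in R 4.3.3, with 1 mean per group over all 6 libraries, a prior variance that follows the level (3 residual degrees of freedom, and 3.27 from the prior), and two-sided p-values adjusted by Benjamini and Hochberg over all features within each comparison (threshold 0.05). The 1 FPKM added before the log2 understates the change of low genes. The fit was run on simulated data with planted changes larger than those of the members and with noise scaled down. It was therefore not tested at the size of the members' changes. Relative depth came from the most frequent ratio of values under 0.3 FPKM in PE replicate 1, and in the other library unless it had over 2 times as many zeros. FPKM gives no totals, so no counting interval is given.

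The members and lists were chosen with earlier results of these data known. Besides all members and Mapk8ip1, the genes named are Srebf1, Scap and Insig2, from each of 6 lists (enzymes, uptake, SREBP processing, efflux, fatty acid synthesis, non-sterol branch) those past the threshold or, where fewer than 3 were, those of smallest p until 3 stood (some genes are not reported here and were left out of the lists, not of the fit), and the 5 features most like the members. Abca1 is so named, and Tmem97, Nceh1 and Elovl5 were named after their values were seen. Symbols were checked against RefSeq gene and promoter tables (GRCr8), and all 8 members matched. Alternatives were another pseudocount, filters, scalings, priors and sample sets, and a sum of the Sqle rows chosen after seeing the data.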

Additional observations from a re-analysis of the deposited data

How the results depend on the processing

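No member passed the threshold with TSA or with the hairpin in any setting. Against PE 2 members fell, 1 with no filter, with only 2 groups in the fit, and 0 to 1 when a library was left out. The members' median change with TSA was -0.60 with the Sqle rows summed, a setting chosen after seeing the data, and -0.75 to -0.32 leaving out a library. With the hairpin it was -0.0939 with the rows summed and -0.294 to -0.13 leaving out a library, and against PE -0.51 to -0.413 leaving out a library. All features past the threshold with TSA were 84, but 3 with no filter, 36 with 1 prior variance for all features, 7 with 2 groups in the fit and 6 to 250 leaving out a library. With the hairpin they were 30, but 0 with no filter (limma, with 1898 features at an unadjusted p under 0.05), 2 with 1 prior variance and 8 to 19 leaving out a library. Against PE they were 857, but 374 with no filter, 372 with 2 groups and 18 to 984 leaving out a library. Quantile normalization moved the median of all features with TSA from 0.10 to -0.02.

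With the replicate number as a block, 28 features passed with TSA, 18 with the hairpin and 1063 against PE, and the members called were as many as without it. Deviations of same-numbered libraries correlated at 0.0735, 0.0396 and 0.122 between the 3 pairs of groups, so the numbers were not taken as pairing the samples. Against PE the 14 pathway features that fell were 7 with no filter, 8 with 2 groups in the fit, 10 with 1 prior variance and 14 with the block, and 1, Elovl5, then rose; Nceh1 rose with a filter of 5 FPKM and with either scaling.

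Signs changed only for values that had not passed. With the hairpin, quantile normalization gave Hmgcs1 -0.0223 and Vldlr 0.0182. Leaving out a library gave Hmgcs1 -0.10 to 0.22, Fdft1 -0.0363 to 0.27, Vldlr -0.12 to 0.0253, Mif4gd -0.49 to 0.19, Nagk -0.30 to 0.0639, Nup107 -0.23 to 0.10, Tor1b -0.18 to 0.0226 and Pxdc1 -1.29 to 0.0421. Against PE it gave Scap -0.27 to 0.25. The shallow PE replicate 2 can limit the precision of every PE mean, since each rests on 2 libraries. Over all features tested, the median absolute log2 difference between the libraries of a group was 0.385 in PE, 0.303 in PE+TSA and 0.304 in PE+TSA+shJIP1. For the members it was 0.083, 0.177 and 0.319, smallest in PE.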
